A study of Homo sapiens with 15 samples.

Results

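The genes described here are those of the Wnt pathway that carry its signal from outside the cell to the nucleus, with the genes that hold it back. They comprise the Wnt ligands, the frizzled receptors, the co-receptors and alternative receptors, the secreted inhibitors of the DKK and SFRP families, the genes of the destruction complex and of feedback, and the nuclear effectors. Members were chosen by symbol, as every gene whose name starts with WNT, FZD, DKK, SFRP or TCF7 together with a fixed set of named receptors, feedback genes and effectors, antisense names left out. This gave 41 members among the 18858 genes of the count table. NKD1, NKD2 and ROR2, which the rule also names, were not among the genes of the count table and could not be analysed. The rule also takes in FZD4-DT, a divergent transcript beside FZD4, and DKKL1, a relative of the DKK family, and both are counted.

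Wnt ligands are secreted lipid-modified proteins that bind frizzled receptors on the cell surface. Together with the co-receptors LRP5 and LRP6 this stops the destruction complex of AXIN1, APC and kinases from breaking down beta-catenin, which then enters the nucleus and works with factors of the TCF/LEF family. Other ligands act through ROR and RYK receptors on cell polarity and movement, and in breast cancer cells both branches have been studied in relation to invasion.

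RNA was sequenced from MDA-MB-231, an established human cell line from a breast adenocarcinoma with mesenchymal features, to compare the transcriptome after loss of YAP, TAZ or both, the transcriptional co-regulators of the Hippo pathway. Cells were left untransfected (Control) or received a non-targeting siRNA pool (siControl), a YAP1 pool (siYAP), a pool for WWTR1, the gene of TAZ (siTAZ), or the YAP1 and WWTR1 pools together (siYAP+TAZ). Knockdown lasted 48 h, after which the cells spent 5 to 6 h on gelatin before RNA was taken. The siYAP+TAZ cells received the amounts of both pools, and the larger total of siRNA and the co-knockdown cannot be told apart in these groups. There were 3 libraries in each of the 5 groups. Control holds libraries 16, 21 and 26, siControl holds 17, 22 and 27, siYAP holds 18, 23 and 28, siTAZ holds 19, 24 and 29, and siYAP+TAZ holds 20, 25 and 30, and values follow that order throughout. Total counts on genes ran from 18696737 to 30107312 per library. Normalized counts are read counts scaled with edgeR's TMM method to a library of mean size, and coordinates are those of GENCODE 44 on GRCh38. A gene is called changed here at an adjusted p of at most 0.05 in edgeR's quasi-likelihood test, adjusted over all 18858 genes, and a stricter rule also asks for a log2 fold change of 1 or more in either direction. The siControl libraries are shared by the 3 knockdown comparisons, so their results are not independent of each other.

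The label of the cell line was set against its markers. VIM, CD44 and EGFR had 29214, 29138 and 28342, 19922, 19819 and 22713, and 11362, 10920.2 and 10204 normalized counts in the siControl libraries, whereas PGR, the progesterone receptor, had 0.851, 1.85 and 1.07. EPCAM, an epithelial adhesion gene, was detected at 318, 324 and 384. Of 10 markers of blood, fibroblast or mural, and endothelial cells, 5 were in the table. Of these, PTPRC, CD79A and LUM, markers of leukocytes, B cells and fibroblasts, together had 11.1, 12.9 and 8.58 normalized counts in siControl. In siYAP+TAZ they had 4.76, 9.67 and 4.59, and PTPRC was at 0 in siYAP+TAZ 20. That sum leaves out COL1A1 and PDGFRB, also fibroblast or mural markers, which had more counts. COL1A1 had 408, 469 and 230 in siControl and 472, 484.5 and 529.5 in siYAP+TAZ. The whole list summed to 466, 549 and 319 in siControl and to 647, 653 and 788 in siYAP+TAZ, most of it COL1A1. PDGFRB was the only marker of the list past the threshold, at 46.8, 67.5 and 80.5 in siControl and 170.0, 159 and 254 in siYAP+TAZ, with a log2 fold change of 1.60 (adjusted p = 0.00099, SE 0.29). Its part in the results below was not tested.

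The siRNA targets come first as a check of the labels. YAP1 had 4038, 4488 and 4512 normalized counts in Control, 4431, 4333 and 4202 in siControl, 1013, 2764 and 761 in siYAP, 4996, 4390.1 and 4393 in siTAZ and 2240.2, 2202 and 1796 in siYAP+TAZ. The siYAP library 23 kept more YAP1 RNA than the other siYAP libraries, and every library that received the YAP1 pool lay below every library that did not. WWTR1 had 1475, 1558 and 1830.2 normalized counts in Control, 1995, 1850.2 and 1579 in siControl, 1956, 1423 and 2000.5 in siYAP, 828, 254 and 521 in siTAZ and 1133, 1123 and 1284 in siYAP+TAZ. The siTAZ libraries were the lowest, and the siYAP+TAZ libraries lay between them and siControl without overlap. The log2 fold change of YAP1 was -1.51 (adjusted p = 0.099, SE 0.37) in siYAP and -1.06 (adjusted p = 0.072, SE 0.37) in siYAP+TAZ, and that of WWTR1 was -1.74 (adjusted p = 0.019, SE 0.32) in siTAZ and -0.62 (adjusted p = 0.2, SE 0.30) in siYAP+TAZ. Neither target therefore passed the threshold in the co-knockdown, although its values did not overlap with siControl.

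Most of the change in the Wnt genes was seen after co-knockdown. In siYAP+TAZ against siControl, 13 of the 41 members passed an adjusted p of 0.05, against 18.4% of all genes tested. Of these, 8 were higher (WNT9A, WNT7B, FZD1, FZD8, LRP5, AXIN2, CTNNB1 and TCF7; 9.97% of all genes were called higher) and 5 were lower (WNT5B, WNT3, FZD2, DKK1 and LEF1; 8.39% of all genes). With the fold threshold added, 2 members remained, WNT9A and WNT7B, against 3.46% of all genes. The siYAP+TAZ and siControl libraries did not overlap for 20 members, and for 36.4% of all genes. Each of the single knockdowns called 1 member, FZD2, which was lower in both, where 0.933% of all genes were called in siYAP and 2.03% in siTAZ. With the fold threshold edgeR called 0 members in either, against 0.0955% and 0.212% of all genes, and DESeq2 and limma-voom also called 0. At an unadjusted p under 0.05, 6 members differed in siYAP, beside 11.9% of all genes, and 10 in siTAZ, beside 16.0%. The median log2 fold change over the 41 members was -0.02 in siYAP, 0.10 in siTAZ and 0.13 in siYAP+TAZ, where the medians over all genes were 0.003, 0 and -0.005. With genes of very low counts set to the bound that 3 counts allow, the member medians were -0.02, 0.08 and 0.05.

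The counts rest partly on individual libraries. Without siControl 22, the siYAP+TAZ comparison called 6 members in place of 13, beside 13.3% of all genes, and these 6 were all among the 13. The FZD2 call in siYAP was lost without siControl 17, 22 or 27 or siYAP 28 (0 members each, beside 0.143%, 0.339%, 0.361% and 0.217% of all genes), and that in siTAZ without siControl 17 or 22 or siTAZ 24 (0 members each, beside 0.626%, 0.658% and 0.361%). The siTAZ count was 3 without siTAZ 19, beside 4.78% of all genes, and 2 of these passed the fold threshold, beside 0.705%. It was 2 without siControl 27 (1.5% of all genes), 3 with DESeq2 (4.25%), 2 with limma-voom (1.88%) and 0 with only these groups in the fit (0.780%). Library numbers fall into the runs 16 to 20, 21 to 25 and 26 to 30, each with a library of every group. The paper describes the RNA libraries as coming from 3 independent sets of experiments, and neither it nor the labels say which libraries make up a set. After group means were removed 11 of the 15 libraries correlated best across genes, among libraries of the other groups, with one of their own run, genes not being independent replicates. The mean correlation was 0.281 within run 16 to 20, 0.0825 within 21 to 25 and 0.414 within 26 to 30. Libraries of different runs and groups had a mean of -0.126, and the lowest value within 21 to 25 was -0.0444. With the run as a block in the fit, the members called were 6 in siYAP, 8 in siTAZ and 17 in siYAP+TAZ, among them each member called without it, and the shares of all genes called were also larger, at 6.10%, 10.3% and 28.6%. The 6 in siYAP were FZD2, WNT7B, WNT5B, WNT3, ROR1 and LRP6, and the 8 in siTAZ were FZD2, WNT9A, WNT7B, WNT5B, FZD1, FZD8, DKK1 and TCF7. In bulk RNA, a lower value can come from fewer cells that express a gene or from less RNA per cell, which these libraries cannot tell apart.

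**Figure D1:**
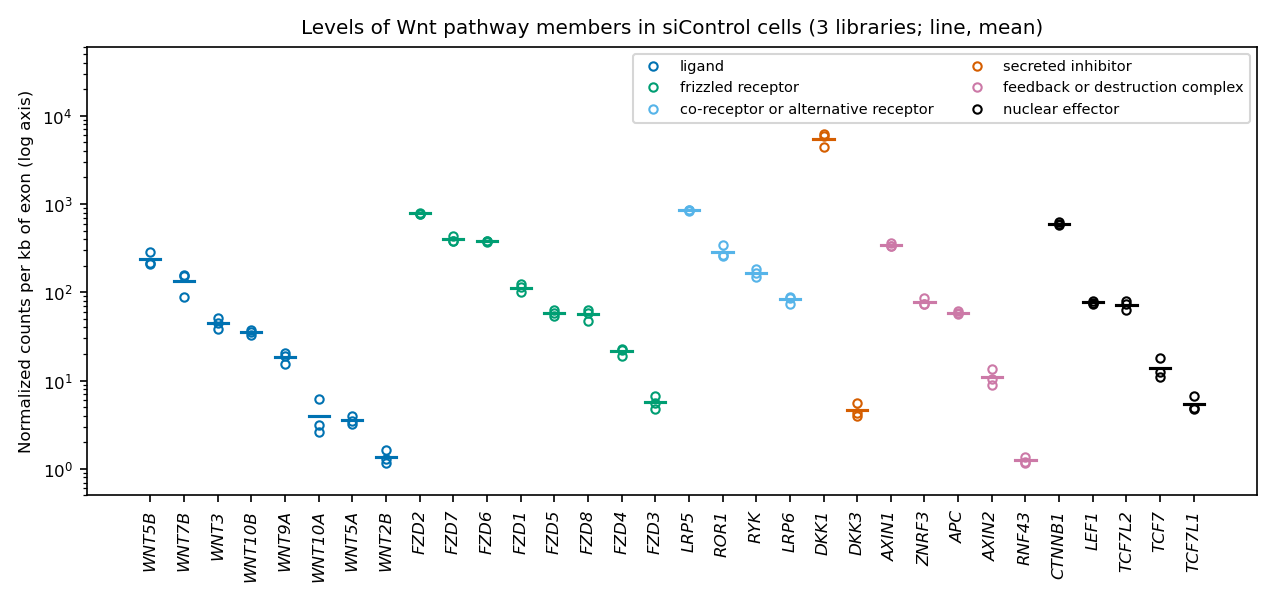
Level of the 32 members that pass a filter on low counts, in the 3 siControl libraries, as normalized counts per kilobase of exon on a log axis (circles, libraries; lines, means; colours, roles). DKK1 stands above all other members, and FZD2, LRP5 and CTNNB1 lead the frizzled receptors, co-receptors and nuclear effectors.

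Levels between genes were compared per kilobase of exon in siControl. DKK1 was the most abundant member at 5516 normalized counts per kilobase, followed on the same scale by LRP5 at 845, FZD2 at 780.5 and CTNNB1 at 599.9. Next in this order stood FZD7 at 397, FZD6 at 376 and AXIN1 at 343 normalized counts per kilobase. The ligands were lower, with WNT5B at 236 and WNT7B at 134 ahead of WNT3 at 44.6 on this scale. A filter on low counts (edgeR's filterByExpr) passed 32 of the 41 members. The other 9 were WNT1, WNT4, WNT8B, WNT11, WNT16, SFRP1, SFRP5, DKKL1 and FZD4-DT, and in none of them did a library exceed 20 counts. In WNT11, WNT16, DKKL1 and SFRP5, every siControl library had 3 counts or fewer, and no fold change is given for them. Their counts in siYAP+TAZ were 1, 6 and 4 for WNT11, 2, 0 and 2 for WNT16, 4, 1 and 3 for DKKL1 and 6, 1 and 2 for SFRP5. At this depth a fall in these genes could not be shown.

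Of the 13 Wnt ligands, 4 changed after co-knockdown, in opposite directions. WNT9A (chr1:227918656-227947932, minus strand), a ligand known from joint and skeletal development, had 75.9, 71.1 and 67.0 normalized counts in Control, 75.7, 61.0 and 82.6 in siControl, 62.8, 113 and 98.6 in siYAP, 102, 129 and 182 in siTAZ and 216, 247 and 376 in siYAP+TAZ. All siYAP+TAZ libraries lay above every library of the other groups, siTAZ lay above siControl without overlap, and siYAP overlapped with siControl. Against siControl the log2 fold change was 1.94 (adjusted p = 4.7e-05, SE 0.25) in siYAP+TAZ, a 3.85-fold rise, 0.90 (adjusted p = 0.078, SE 0.26) in siTAZ and 0.32 (adjusted p = 0.7, SE 0.26) in siYAP. In siTAZ WNT9A passed with DESeq2 (0.91), with the run of library numbers as a block (0.88) and without siTAZ 19 (1.09). The siYAP+TAZ call held in each of the 13 alternative fits, with log2 fold changes from 1.67 to 2.10. WNT7B (chr22:45920366-45977162, minus strand), a beta-catenin-activating ligand known from lung and vessel development, had 768, 818 and 454 normalized counts in Control, 805, 781 and 449.5 in siControl, 1421, 1247 and 735 in siYAP, 1332, 1143 and 836 in siTAZ and 2681, 2722 and 1341 in siYAP+TAZ. Within each group the library of the run numbered 26 to 30 was the lowest, and every siYAP+TAZ library was above every siControl library. Its log2 fold change was 1.72 (adjusted p = 0.0085, SE 0.37) in siYAP+TAZ, 0.74 (adjusted p = 0.48, SE 0.37) in siYAP and 0.70 (adjusted p = 0.4, SE 0.37) in siTAZ. Within the runs the ratio of siYAP+TAZ to siControl was 3.33, 3.48 and 2.98, that of siYAP was 1.77, 1.60 and 1.64 and that of siTAZ was 1.66, 1.46 and 1.86, so the spread of the group values is wider than that of the ratios. With the run of library numbers as a block in edgeR, WNT7B passed in siYAP (0.74, adjusted p = 1.8e-06) and in siTAZ (0.72, adjusted p = 8.1e-07). The siYAP+TAZ call for WNT7B held in each of the 13 alternative fits.

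The ligands that fell were WNT5B and WNT3. WNT5B (chr12:1529891-1647212, plus strand), a close relative of WNT5A that is mostly linked to signalling without beta-catenin, was the most abundant ligand per kilobase. It had 1037, 956 and 1048 normalized counts in Control, 902, 894 and 1210.1 in siControl, 789, 733 and 869.8 in siYAP, 773, 819 and 782 in siTAZ and 672, 685 and 718 in siYAP+TAZ. Each of the 3 knockdown groups lay below siControl without overlap, siYAP+TAZ lowest. On the log2 scale the change was -0.53 (adjusted p = 0.0013, SE 0.10) in siYAP+TAZ, -0.33 (adjusted p = 0.15, SE 0.10) in siYAP and -0.34 (adjusted p = 0.092, SE 0.10) in siTAZ, and the siYAP+TAZ call held in each of the 13 alternative fits. WNT3 (chr17:46762506-46833154, minus strand), a ligand of the beta-catenin branch, had 248, 238 and 242 normalized counts in Control, 205, 239.5 and 277 in siControl, 175, 192 and 172 in siYAP, 195, 163 and 202 in siTAZ and 146, 204 and 188 in siYAP+TAZ. All knockdown libraries lay below all siControl libraries, and the 3 knockdown groups overlapped with each other. In siYAP+TAZ the log2 fold change was -0.41 (adjusted p = 0.043, SE 0.14), with -0.42 (adjusted p = 0.18, SE 0.14) in siYAP and -0.36 (adjusted p = 0.19, SE 0.14) in siTAZ. The siYAP+TAZ call for WNT3 was lost without siYAP+TAZ 20 (-0.29), siControl 22 (-0.42), siControl 27 (-0.30) and siYAP+TAZ 30 (-0.44), with limma-voom (-0.40) and with only these groups in the fit (-0.41), and the log2 fold change was -0.51 to -0.29 over the 13 alternative fits, with adjusted p from 0.011 to 0.2. Among the other ligands that passed the filter, WNT10B, an activator of beta-catenin, had a siControl mean of 91.4 ± 5.84 and a siYAP+TAZ mean of 72.2 ± 23.9 normalized counts (SD, n = 3 each). WNT5A, WNT2B and WNT10A had siControl means of 25.3, 17.0 and 11.7, and none of these 4 passed the threshold in any comparison. Genes on the opposite strand cover 21.5% of the exonic bases of WNT2B, and whether counting used the strand of reads is not stated.

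**Figure D2:**
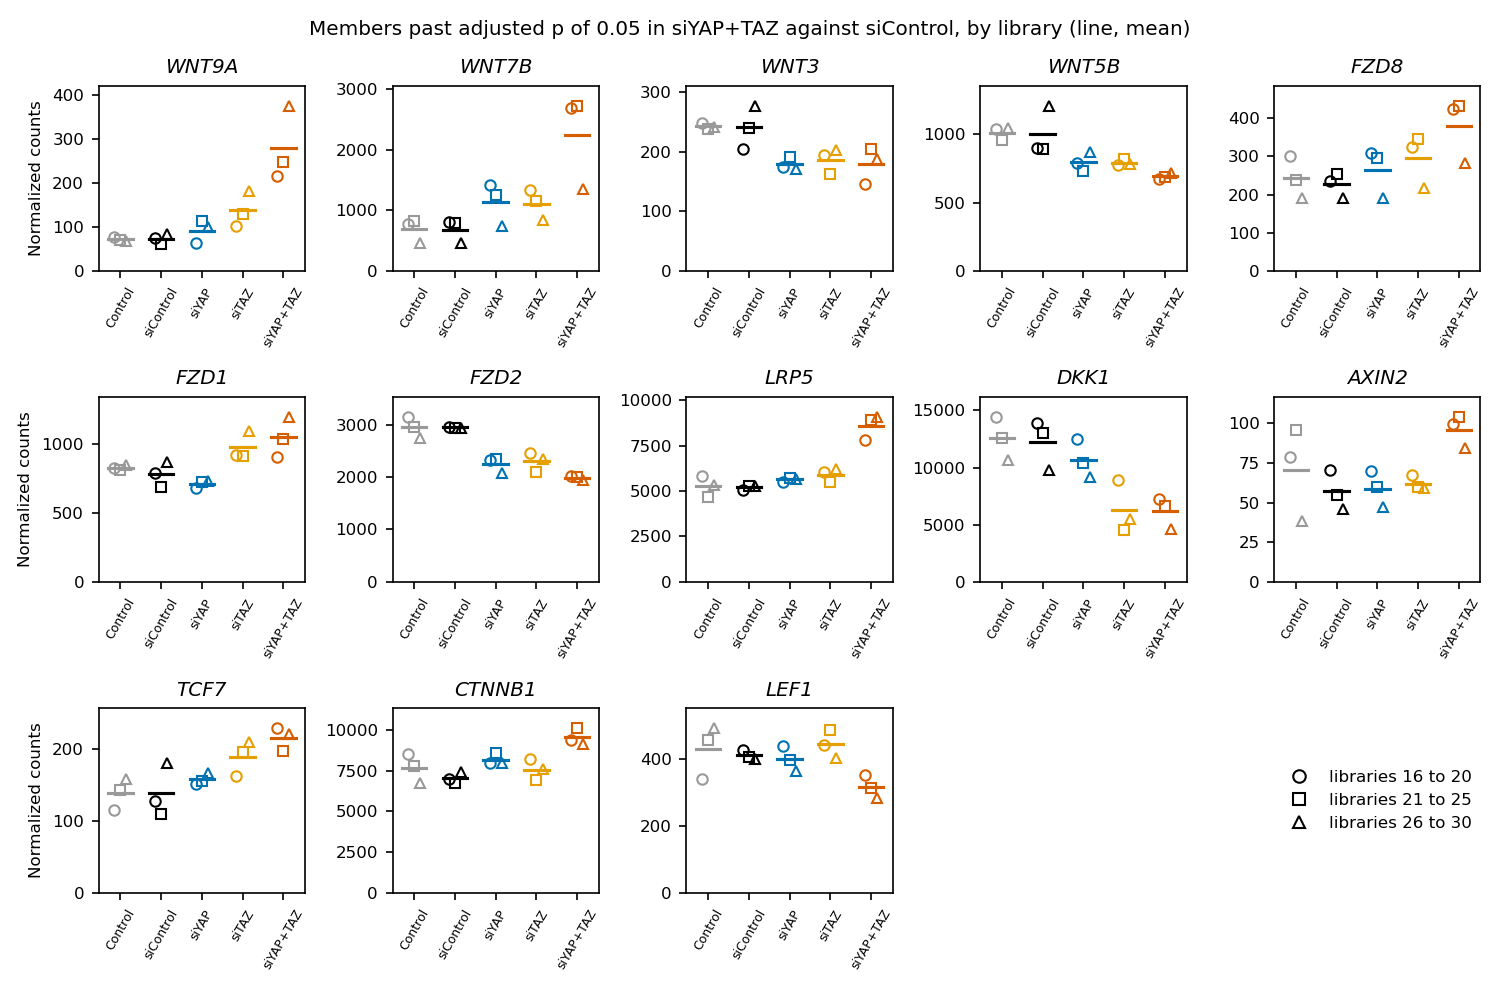
Normalized counts in all 15 libraries for the 13 members past an adjusted p of 0.05 in siYAP+TAZ against siControl, by group (lines, group means; symbols, runs of library numbers). For each of the 13 genes the siYAP+TAZ libraries lie wholly above or wholly below the siControl libraries, and WNT7B and DKK1 are lower in libraries 26 to 30 of most groups.

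All 8 frizzled genes, which encode the membrane receptors for the ligands, passed the filter, and 3 changed after co-knockdown. FZD2 (chr17:44557484-44561262, plus strand) was the most abundant frizzled per kilobase and had 3150.3, 2955 and 2743 normalized counts in Control, 2964, 2944 and 2939.5 in siControl, 2327, 2337 and 2076 in siYAP, 2458, 2102 and 2337 in siTAZ and 2026, 1993 and 1938 in siYAP+TAZ. Every knockdown library was below every Control and siControl library, and the siControl libraries differed little among themselves. FZD2 fell, with log2 fold changes of -0.39 (adjusted p = 0.014, SE 0.07) in siYAP, -0.36 (adjusted p = 0.015, SE 0.07) in siTAZ and -0.57 (adjusted p = 3.7e-05, SE 0.07) in siYAP+TAZ. The siYAP+TAZ call for FZD2 held in each of the 13 alternative fits. Its siYAP call was lost without siControl 17 (-0.38), siControl 22 (-0.39), siControl 27 (-0.39) and siYAP 28 (-0.34). Its siTAZ call was lost without siControl 17 (-0.36), siControl 22 (-0.36) and siTAZ 24 (-0.30), and with only these groups in the fit (-0.36). Over the 13 alternative fits the log2 fold change was -0.42 to -0.34 in siYAP and -0.41 to -0.30 in siTAZ. Adjusted p for FZD2 ran from 0.00018 to 0.089 in siYAP and from 3e-04 to 0.12 in siTAZ over those fits.

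FZD1 and FZD8 were higher after co-knockdown. FZD1 (chr7:91264433-91271326, plus strand) had 822, 808 and 847 normalized counts in Control, 787, 688 and 866 in siControl, 679, 720.0 and 730.2 in siYAP, 915, 912 and 1093 in siTAZ and 901, 1037 and 1194 in siYAP+TAZ. The siTAZ and siYAP+TAZ libraries lay above siControl without overlap, and the siYAP values fell within or just under the siControl range. Its log2 fold change was 0.42 (adjusted p = 0.0079, SE 0.10) in siYAP+TAZ, 0.32 (adjusted p = 0.12, SE 0.10) in siTAZ and -0.14 (adjusted p = 0.68, SE 0.10) in siYAP, and the siYAP+TAZ call was lost without siControl 22 (0.34), with adjusted p from 9.3e-05 to 0.054 over the 13 alternative fits. FZD8 (chr10:35638247-35642296, minus strand) had 302, 239 and 191 normalized counts in Control, 236, 253 and 192 in siControl, 309.5, 295 and 190.0 in siYAP, 326, 344 and 217 in siTAZ and 423, 433 and 283 in siYAP+TAZ. The siYAP+TAZ libraries were above all siControl libraries, but siYAP+TAZ 30 was below Control 16, and the libraries 26 to 30 were the lowest in each group. The log2 fold change of FZD8 was 0.73 (adjusted p = 0.038, SE 0.23) in siYAP+TAZ, 0.38 (adjusted p = 0.46, SE 0.23) in siTAZ and 0.22 (adjusted p = 0.79, SE 0.23) in siYAP, and within the runs the ratio of siYAP+TAZ to siControl was 1.79, 1.71 and 1.47. The call was lost without siControl 17 (0.77), siYAP+TAZ 20 (0.65), siControl 22 (0.82), siYAP+TAZ 25 (0.63) and siControl 27 (0.63), and with Control as the reference (0.63), with log2 fold changes of 0.63 to 0.92 over the 13 alternative fits, with adjusted p from 1.9e-06 to 0.13. FZD7, FZD6, FZD5, FZD4 and FZD3 did not pass the threshold in any comparison in the edgeR fit of all libraries without a block. FZD7 had a mean of 1823 ± 135 normalized counts in siControl, 1464 ± 86.3 in siYAP and 1993 ± 413 in siYAP+TAZ (SD, n = 3 each). FZD6 had 1529 ± 32.3 in siControl and 1303 ± 207 in siYAP+TAZ, with a log2 fold change of -0.23 (adjusted p = 0.11, SE 0.10). FZD6 passed in siYAP+TAZ against siControl with the run of library numbers as a block (-0.23) and without siYAP+TAZ 30 (-0.35). Against siTAZ, siYAP+TAZ passed for FZD6 with the block (-0.33), with DESeq2 (-0.32), and without siTAZ 19 (-0.39) or siYAP+TAZ 30 (-0.45). FZD7 passed in siYAP+TAZ against siYAP with the block (0.43) and with DESeq2 (0.45). The siControl means of FZD5, FZD4 and FZD3 were 409.7, 158 and 78.4, and their log2 fold changes in siYAP+TAZ were -0.18, 0.11 and 0.05. A gene on the opposite strand covers 18.9% of the exonic bases of FZD4, and 7.85% of those of FZD8.

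LRP5 (chr11:68312591-68449275, plus strand), like LRP6 a co-receptor of frizzleds in the beta-catenin branch, had the smallest adjusted p among the members after co-knockdown. It had 5843, 4659.5 and 5314 normalized counts in Control, 5083, 5292 and 5299 in siControl, 5496, 5740.4 and 5681 in siYAP, 6034, 5488 and 6198 in siTAZ and 7843, 8911 and 9098 in siYAP+TAZ. The siYAP+TAZ libraries lay above all other libraries, and the siYAP and siTAZ libraries lay just above siControl and overlapped with Control. LRP5 rose, with a log2 fold change of 0.72 (adjusted p = 9.6e-06, SE 0.08) in siYAP+TAZ, a 1.65-fold rise, 0.11 (adjusted p = 0.66, SE 0.08) in siYAP and 0.18 (adjusted p = 0.29, SE 0.08) in siTAZ, and the siYAP+TAZ call held in each of the 13 alternative fits. Its paralog LRP6 did not pass, with 861 ± 79.5 normalized counts in siControl and 832 ± 29.0 in siYAP+TAZ (SD, n = 3 each), a log2 fold change of -0.05 (adjusted p = 0.82, SE 0.11). LRP6 had its lowest mean of the 5 groups in siYAP, at 697 ± 94.8, and passed against siControl there with the run of library numbers as a block (-0.31). The alternative receptors are the tyrosine kinase-like ROR1, a receptor for WNT5A, and RYK. ROR1 had a mean of 1930.1 ± 318 in siControl and 1518 ± 269.8 in siYAP+TAZ, and RYK 1345 ± 146 and 1230.4 ± 116. Neither passed the threshold in any comparison without the block. With it ROR1 was lower in siYAP (-0.27) and in siYAP+TAZ (-0.35) against siControl, and in siYAP+TAZ against siTAZ (-0.28). Within the runs the ratio of ROR1 to siControl was 0.818, 0.879 and 0.799 in siYAP and 0.762, 0.799 and 0.796 in siYAP+TAZ.

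Among the secreted inhibitors DKK1 (chr10:52314281-52318042, plus strand), which binds LRP5 and LRP6 and blocks them as co-receptors, was the most abundant member of all. It had 14446, 12603 and 10669.6 normalized counts in Control, 13894, 13029 and 9828 in siControl, 12461, 10357 and 9188 in siYAP, 8909.9, 4526 and 5473 in siTAZ and 7252, 6660.5 and 4583 in siYAP+TAZ. The siTAZ and siYAP+TAZ libraries were all below every Control and siControl library and overlapped with each other, whereas siYAP overlapped with siControl. DKK1 fell in siYAP+TAZ, and the log2 fold change was -0.99 (adjusted p = 0.021, SE 0.26) in siYAP+TAZ, -0.96 (adjusted p = 0.087, SE 0.26) in siTAZ and -0.20 (adjusted p = 0.85, SE 0.26) in siYAP. The siYAP+TAZ mean was 0.503 of that of siControl by this fit, and the ratio within the runs of library numbers was 0.522, 0.511 and 0.466. In siTAZ the ratios within runs were 0.641, 0.347 and 0.557. The siTAZ difference from siControl passed with DESeq2 (-0.96), limma-voom (-1.0), the run as a block (-0.98) and without siTAZ 19 (-1.29). The siYAP+TAZ call for DKK1 was lost without siControl 17 (-0.89), siControl 22 (-0.94) and siYAP+TAZ 30 (-0.81), with adjusted p from 0.0011 to 0.073 over the 13 alternative fits. A gene on the opposite strand covers 10.2% of its exonic bases. DKK3, a divergent relative, had 55.2 ± 10.1 normalized counts in siControl and 46.0 ± 19.0 in siYAP+TAZ, with opposite-strand genes over 47.5% of its exonic bases. SFRP1, which binds Wnt ligands, had 10, 10 and 1 counts in siControl and 20, 16 and 9 in siYAP+TAZ, and its log2 fold change of 1.29 (adjusted p = 0.16, SE 0.60) did not pass. SFRP1 passed there with the block (1.35), and against siTAZ with the block (2.22) and without siYAP+TAZ 30 (2.5).

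Promoter windows of RefSeq (GRCh38.p14) were at hand for 29 of the 41 members, 37 windows in all. The members without a window were FZD7, FZD3, SFRP1, FZD6, DKK3, WNT11, LRP6, WNT10B, FZD2, AXIN2, ZNRF3 and WNT7B. The 250 bases before each start site were searched on both strands for CATTCC, the core bound by TEAD factors, through which YAP and TAZ act, and for CTTTGA, a core bound by TCF/LEF factors. CATTCC was found in 4 of the 37 member windows (those of APC, DKK1, RNF43 and DKKL1; 10.8%) and in 11.9% of all 35116 windows, and CTTTGA in 1 of 37 (2.70%) and in 11.2% of all windows. The member window with CTTTGA was that of DKK1, which holds it at 149 and 95 bases before the start and CATTCC at 50 bases before it, counted to the first base of the match in the window. It is the only member window with both. The DKK1 and WNT9A windows are shown because these genes had the most negative and the most positive log2 fold change among the called members, a choice made after their values were seen. Capitals mark the matches, TCAAAG and GGAATG being the same letters on the other strand, and the WNT9A window has none.
DKK1 (chr10:52314031-52314280, plus strand): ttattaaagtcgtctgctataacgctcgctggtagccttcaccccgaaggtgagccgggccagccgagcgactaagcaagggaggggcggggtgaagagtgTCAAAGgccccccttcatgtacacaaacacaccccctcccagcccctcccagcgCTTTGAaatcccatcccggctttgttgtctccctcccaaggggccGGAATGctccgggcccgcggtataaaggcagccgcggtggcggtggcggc
WNT9A (chr1:227947933-227948182, minus strand): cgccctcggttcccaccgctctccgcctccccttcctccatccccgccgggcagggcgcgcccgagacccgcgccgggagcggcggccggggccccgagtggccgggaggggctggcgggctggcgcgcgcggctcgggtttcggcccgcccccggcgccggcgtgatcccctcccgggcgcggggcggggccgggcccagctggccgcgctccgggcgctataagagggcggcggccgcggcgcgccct
A match describes the letters of a window and is no measure of binding.

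Of the 5 feedback and destruction-complex genes, AXIN2 changed. AXIN2 (chr17:65528563-65561648, minus strand), a scaffold of the destruction complex that beta-catenin itself induces in many cells, had 78.9, 95.6 and 38.1 normalized counts in Control, 70.6, 54.5 and 46.1 in siControl, 69.7, 59.6 and 47.2 in siYAP, 67.2, 59.8 and 59.1 in siTAZ and 99.9, 104 and 84.4 in siYAP+TAZ. The siYAP+TAZ libraries lay above all siControl, siYAP and siTAZ libraries, but Control 21 was higher than siYAP+TAZ 30. The log2 fold change was 0.74 (adjusted p = 0.046, SE 0.25) in siYAP+TAZ, 0.04 (adjusted p = 0.98, SE 0.26) in siYAP and 0.12 (adjusted p = 0.88, SE 0.26) in siTAZ. With Control as the reference it was 0.42 and did not pass. The call was also lost with limma-voom (0.74) and without siYAP+TAZ 20 (0.71), siControl 22 (0.70), siYAP+TAZ 25 (0.68), siControl 27 (0.61) and siYAP+TAZ 30 (0.83), and the log2 fold change of AXIN2 was 0.42 to 0.93 over the 13 alternative fits, with adjusted p from 0.0022 to 0.26. AXIN1, the main scaffold and the most abundant gene of this role per kilobase, had 2362, 2422 and 3008 normalized counts in Control, 2495, 2538 and 2732 in siControl, 2327, 2177 and 2514 in siYAP, 2476, 2147 and 2309.8 in siTAZ and 2247, 2449 and 2351 in siYAP+TAZ. The siTAZ and siYAP+TAZ libraries lay below siControl without overlap, by small margins, whereas siYAP and Control overlapped with siControl. Its log2 fold change in siYAP+TAZ was -0.14 (adjusted p = 0.32, SE 0.09). APC, the tumour suppressor of the complex, had means of 802 ± 37.5 in siControl and 812 ± 67.7 in siYAP+TAZ (SD, n = 3 each). ZNRF3 and RNF43, ubiquitin ligases that remove frizzleds from the membrane, had means of 543 ± 53.1 and 7.88 ± 0.623 in siControl and of 469.6 ± 29.4 and 11.3 ± 2.19 in siYAP+TAZ. None of these 4 passed the threshold in any comparison.

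All 5 nuclear effectors passed the filter, and 3 changed after co-knockdown. CTNNB1 (chr3:41194741-41260096, plus strand), which encodes beta-catenin, the coactivator at the centre of the pathway and a part of cell junctions, had 8515, 7763 and 6776 normalized counts in Control, 6983, 6747 and 7433 in siControl, 7949, 8593 and 7989 in siYAP, 8224, 6905 and 7584 in siTAZ and 9419.8, 10141 and 9163 in siYAP+TAZ. The siYAP+TAZ libraries lay above all other libraries. Its log2 fold change was 0.44 (adjusted p = 0.0013, SE 0.09) in siYAP+TAZ, 0.21 (adjusted p = 0.3, SE 0.09) in siYAP and 0.10 (adjusted p = 0.62, SE 0.09) in siTAZ, and the siYAP+TAZ call held in each of the 13 alternative fits. These are RNA levels, and beta-catenin is known to be controlled mainly as a protein. TCF7 (chr5:134114681-134151865, plus strand), a DNA-binding partner of beta-catenin, had 115, 143 and 158 normalized counts in Control, 128, 110.0 and 180.2 in siControl, 152, 156 and 166 in siYAP, 163, 196 and 209.5 in siTAZ and 229.5, 198 and 220.2 in siYAP+TAZ. The siYAP+TAZ libraries were above all siControl and Control libraries and overlapped with siTAZ. For TCF7 the log2 fold change was 0.64 (adjusted p = 0.011, SE 0.17) in siYAP+TAZ, 0.44 (adjusted p = 0.18, SE 0.17) in siTAZ and 0.19 (adjusted p = 0.74, SE 0.17) in siYAP. In siTAZ TCF7 passed with the block (0.45) and without siControl 27 (0.66). Its siYAP+TAZ call was lost without siControl 17 (0.58) and siControl 22 (0.49), with adjusted p from 0.00039 to 0.071 over the 13 alternative fits. LEF1 (chr4:108047545-108168956, minus strand), another such partner, moved the other way and had 341, 456 and 493 normalized counts in Control, 428, 407 and 399 in siControl, 438, 397 and 365 in siYAP, 441, 486 and 402 in siTAZ and 351, 313 and 282 in siYAP+TAZ. The siYAP+TAZ libraries were below all siControl, siYAP and siTAZ libraries, but Control 16 lay below siYAP+TAZ 20. Its log2 fold change was -0.39 (adjusted p = 0.04, SE 0.13) in siYAP+TAZ, -0.04 (adjusted p = 0.96, SE 0.12) in siYAP and 0.11 (adjusted p = 0.75, SE 0.12) in siTAZ. The siYAP+TAZ call for LEF1 was lost without siControl 17 (-0.35), siControl 22 (-0.40), siYAP+TAZ 25 (-0.38), siControl 27 (-0.41) and siYAP+TAZ 30 (-0.30), with log2 fold changes of -0.47 to -0.30 over the 13 alternative fits, with adjusted p from 0.012 to 0.15. TCF7L2 had a mean of 485 ± 56.5 in siControl and 663 ± 125 in siYAP+TAZ, and its log2 fold change of 0.45 (adjusted p = 0.059, SE 0.16) fell just short of the threshold and passed it in 6 of the 13 alternative fits. With the run of library numbers as a block TCF7L2 passed in siYAP+TAZ against siControl (0.44), siYAP (0.4) and siTAZ (0.37). TCF7L1, often a repressor, had means of 24.2 ± 4.86 in siControl, 39.1 ± 3.66 in siTAZ and 32.7 ± 3.43 in siYAP+TAZ, and did not pass in any comparison. Opposite-strand genes cover 5.20% of the exonic bases of LEF1, 2.08% of those of TCF7 and 4.45% of those of TCF7L2.

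**Figure D3:**
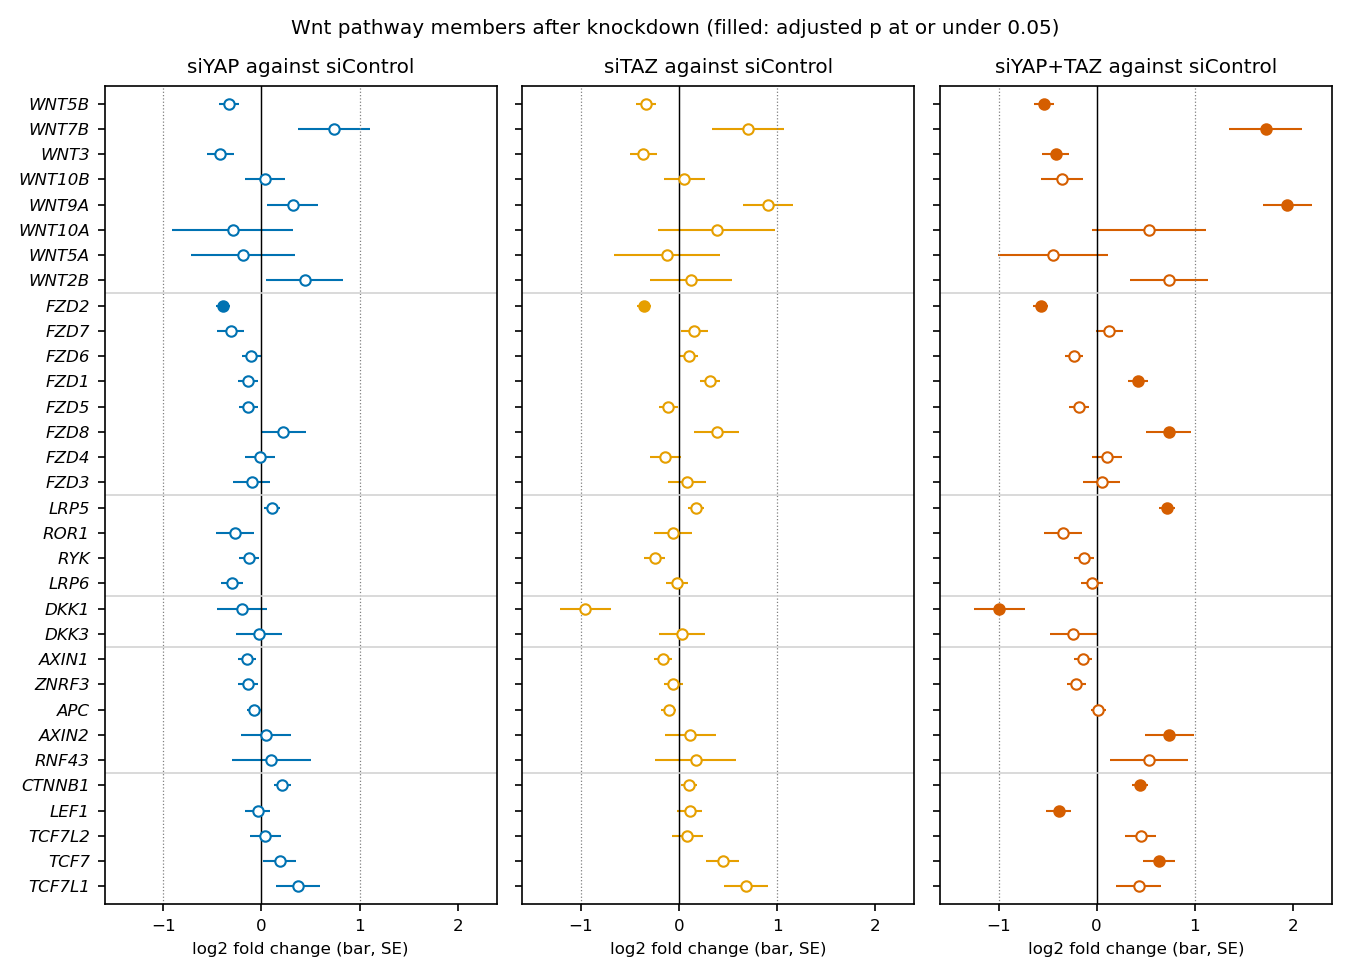
Log2 fold change with SE of the 32 members that pass the filter on low counts, for each knockdown against siControl, grouped by role as in the plot of levels (filled, adjusted p at most 0.05; dotted lines, log2 fold changes of 1 and -1). FZD2 is filled in all 3 panels, and WNT9A and WNT7B are the filled points beyond the dotted lines.

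The knockdowns were then set against each other. Of the siRNA targets, WWTR1 had a log2 fold change of 1.13 (adjusted p = 0.065, SE 0.31) in siYAP+TAZ against siTAZ, without overlap. YAP1 had 0.455 (adjusted p = 0.57, SE 0.37) in siYAP+TAZ against siYAP, with overlap. The part of these target levels in the comparisons below was not tested. Adding the WWTR1 pool to the YAP1 pool (siYAP+TAZ against siYAP) called 3 of the 41 members (5 with DESeq2, which called 6.85% of all genes), against 5.13% of all genes. They were higher in siYAP+TAZ, WNT9A with a log2 fold change of 1.62 (adjusted p = 8e-04, SE 0.24), LRP5 with 0.61 (adjusted p = 0.00026, SE 0.08) and FZD1 with 0.56 (adjusted p = 0.0038, SE 0.10), and each passed in all of its 12 alternative fits. Adding the YAP1 pool to the WWTR1 pool (siYAP+TAZ against siTAZ) called 4 members, against 5.44% of all genes. LRP5 was higher by 0.55 (adjusted p = 0.00092, SE 0.08), WNT9A by 1.04 (adjusted p = 0.016, SE 0.24) and CTNNB1 by 0.34 (adjusted p = 0.026, SE 0.09), and LEF1 was lower at -0.50 (adjusted p = 0.029, SE 0.13). LRP5 passed in all of its 12 alternative fits. The call of WNT9A was lost without siTAZ 19 (0.85), siTAZ 24 (1.01) and siYAP+TAZ 30 (0.77), and with only these groups in the fit (1.05). That of CTNNB1 was lost without siYAP+TAZ 20 (0.35), siTAZ 24 (0.28), siYAP+TAZ 25 (0.30) and siTAZ 29 (0.34), and that of LEF1 without siTAZ 19 (-0.50), siTAZ 24 (-0.42), siYAP+TAZ 25 (-0.48) and siYAP+TAZ 30 (-0.41). The count of members fell to 1 without siTAZ 24, beside 2.93% of all genes, and to 2 without siYAP+TAZ 25, beside 2.47%. Adjusted p over these fits ran from 0.00013 to 0.073 for WNT9A, from 0.0018 to 0.12 for CTNNB1 and from 0.0046 to 0.12 for LEF1.

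The other members called after co-knockdown were not separated from both single knockdowns by these direct tests, so a difference from both is not shown for them in this fit. Among them FZD1 was separated from siYAP only, and CTNNB1 and LEF1 from siTAZ only. With the run of library numbers as a block, 13 members passed against siYAP, beside 14.6% of all genes, and 12 against siTAZ, beside 14.8%. Of the genes in the next sentences WNT7B, FZD8, AXIN2, CTNNB1 and LEF1 passed in both with the block. DKK1 passed against siYAP with the block (-0.80), DESeq2 (-0.79) and limma-voom (-0.81), TCF7 passed against siYAP with the block (0.44), and FZD2 passed against siTAZ with the block (-0.21). For the ligands the log2 fold change of siYAP+TAZ was, for WNT7B, 0.98 against siYAP (adjusted p = 0.16) and 1.02 against siTAZ (adjusted p = 0.15), for WNT5B -0.20 against siYAP (adjusted p = 0.3) and -0.19 against siTAZ (adjusted p = 0.33), and for WNT3 0.00 against siYAP (adjusted p = 0.99) and -0.05 against siTAZ (adjusted p = 0.9). Among the receptors and inhibitors it was 0.51 against siYAP (adjusted p = 0.24) and 0.35 against siTAZ (adjusted p = 0.45) for FZD8, -0.18 against siYAP (adjusted p = 0.19) and -0.21 against siTAZ (adjusted p = 0.11) for FZD2, and -0.79 against siYAP (adjusted p = 0.11) and -0.03 against siTAZ (adjusted p = 0.97) for DKK1. For AXIN2 it was 0.69 against siYAP (adjusted p = 0.12) and 0.62 against siTAZ (adjusted p = 0.17), and for TCF7 0.45 against siYAP (adjusted p = 0.13) and 0.19 against siTAZ (adjusted p = 0.57). The remaining direct values were 0.10 for FZD1 against siTAZ (adjusted p = 0.65), 0.23 for CTNNB1 against siYAP (adjusted p = 0.14) and -0.35 for LEF1 against siYAP (adjusted p = 0.13).

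Set directly against siTAZ, siYAP showed 0 members past the threshold with edgeR and 0.642% of all genes. At an unadjusted p under 0.05 there were 6 members, beside 13.7% of all genes, and DESeq2 called 1 (1.88% of all genes) and limma-voom 0. Without siTAZ 19 the edgeR count was 3, beside 2.21% of all genes, and with the run of library numbers as a block it was 4 (FZD7, FZD1, DKK1 and LRP6), beside 7.32% of all genes. FZD1 had the smallest adjusted p, with a log2 fold change of -0.46 (adjusted p = 0.054, SE 0.10), and DKK1 had 0.76 (adjusted p = 0.22, SE 0.26). The difference in DKK1 between the single knockdowns passed with the block (0.78) and without siTAZ 19 (1.09), as did that of FZD1 (-0.45 and -0.50), which also passed with DESeq2 (-0.45), and that of FZD7 (-0.46 and -0.60). The interaction asks whether the co-knockdown differs from the single knockdowns added on the log2 scale. It called 0 members with edgeR, DESeq2 or limma-voom, against 0.0106% of all genes with edgeR, and 2 members differed at an unadjusted p under 0.05, beside 5.85% of all genes. With the block 1 member passed, LRP5, beside 0.647% of all genes. The 2 members were LRP5 with an interaction of 0.43 (adjusted p = 0.46, SE 0.12) and LEF1 with -0.46 (adjusted p = 0.75, SE 0.18). Between siControl and Control, edgeR called 0% of all genes and 0 members. DESeq2 and limma-voom called 0 members too, and 0 members differed at an unadjusted p under 0.05, beside 2.11% of all genes.

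Other genes of the pathway were taken from 6 lists by function, 68 of whose 86 genes were in the table. After co-knockdown 13 of them were higher and 4 were lower, against 9.97% and 8.39% of all genes. The total of 17 fell to 11 without siControl 17, beside 13.4% of all genes, and to 11 without siYAP+TAZ 20, beside 13.6%. In siYAP 1 of the 68 passed, beside 0.933% of all genes, and in siTAZ 6 did, beside 2.03%, all of them higher. Over the 68 genes the median log2 fold change was 0.08 in siYAP+TAZ, beside -0.005 over all genes. Of 3 genes for secretion, WLS, the carrier that brings Wnt ligands to the cell surface, was higher, at 1991, 1954 and 1754 normalized counts in siControl and 2813, 3025 and 2673 in siYAP+TAZ. WLS rose by a log2 fold change of 0.58 (adjusted p = 0.00027, SE 0.09). Of 7 extracellular agonists and antagonists 2 were higher. NDP, a ligand of FZD4 outside the Wnt family, went from 9.36, 11.1 and 9.65 to 29.7, 27.9 and 29.4, and TPBG, a membrane inhibitor of the pathway, from 1562, 1621 and 1164 to 2636, 2488 and 1696. The log2 fold changes were 1.52 (adjusted p = 0.0023, SE 0.32) and 0.65 (adjusted p = 0.03, SE 0.19). In untransfected Control NDP had 15.99, 18.65 and 13.15, above every siControl library and below every siYAP+TAZ library. From Control to siControl its log2 fold change was -0.67 and not called, so its rise is smaller when set against Control. NDP was also higher in siTAZ alone, at 21.5, 31.6 and 33.4, a log2 fold change of 1.49 (adjusted p = 0.018, SE 0.32), and siYAP+TAZ against siTAZ gave 0.03 (adjusted p = 0.98, SE 0.28). Of 21 cytoplasmic transducers 2 were higher, both CXXC-type zinc finger genes known to bind dishevelled. CXXC5 went from 368, 374 and 385 to 782, 901 and 991, with a log2 fold change of 1.25 (adjusted p = 5e-07, SE 0.11), and was also higher in siYAP, by 0.61 (adjusted p = 0.0084, SE 0.11), and in siTAZ, by 0.50 (adjusted p = 0.019, SE 0.11). CXXC4 went from 5.10, 7.40 and 9.65 to 23.8, 14.0 and 33.0, with a log2 fold change of 1.70 (adjusted p = 0.0086, SE 0.42).

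Of 13 nuclear cofactors 2 were higher and 1 was lower in siYAP+TAZ. The corepressor TLE3 had 2912, 2878 and 2836 normalized counts in siControl and 4265, 4806 and 4455 in siYAP+TAZ. TLE3 rose by a log2 fold change of 0.65 (adjusted p = 8.4e-06, SE 0.07), and in siTAZ by 0.36 (adjusted p = 0.013, SE 0.07). BCL9 and PYGO1, which link beta-catenin to transcription, moved in opposite directions, with log2 fold changes of 0.63 (adjusted p = 2e-04, SE 0.10) and -0.63 (adjusted p = 0.0017, SE 0.12). Of 10 genes of planar polarity, the branch that orients cells in a sheet, 6 were higher and 2 lower. PRICKLE2 had 136, 122 and 105 in siControl and 342, 348 and 392 in siYAP+TAZ, a log2 fold change of 1.57 (adjusted p = 1.2e-06, SE 0.15). The formin-like DAAM1, the cadherin CELSR2 and the membrane protein VANGL1 had log2 fold changes of 0.91 (adjusted p = 0.0014, SE 0.17), 0.57 (adjusted p = 0.0028, SE 0.12) and 0.30 (adjusted p = 0.015, SE 0.08). In siTAZ 3 of these genes were also called higher, PRICKLE2 by 0.97 (adjusted p = 0.004, SE 0.15), CELSR2 by 0.53 (adjusted p = 0.028, SE 0.12) and VANGL1 by 0.33 (adjusted p = 0.047, SE 0.08). The 2 that fell, named after their values were seen, were PRICKLE1 at -0.53 (adjusted p = 0.017, SE 0.15) and DAAM2 at -1.21 (adjusted p = 0.048, SE 0.41). Of 14 genes known as targets of beta-catenin in other tissues, 0 were higher and 1, CCND1, was lower, at -0.25 (adjusted p = 0.035, SE 0.08). The list leaves out the members. AXIN2, a member that beta-catenin induces in many cells, was called higher (0.74), a call lost in 7 of 13 alternative fits. The 14 had a median log2 fold change of -0.02, beside -0.005 over all genes. For comparison, 5 of 5 genes known as targets of YAP and TAZ were lower in siYAP+TAZ, with a median log2 fold change of -0.99. The 4 with the smallest p were AMOTL2 (-0.84), CCN1 (-1.17), AJUBA (-0.70) and CCN2 (-0.99). In siYAP and in siTAZ all 5 had negative log2 fold changes, with medians of -0.58 and -0.65, and 1 of them passed the adjusted p in each, AMOTL2 in siYAP at -0.58 (adjusted p = 0.00042, SE 0.06) and CCN1 in siTAZ at -0.65 (adjusted p = 0.011, SE 0.12). Opposite-strand genes cover 30.1% of the exonic bases of DAAM2, 25.3% of those of PRICKLE2, 23.7% of those of PRICKLE1, 16.2% of those of NDP, 11.9% of those of CCN2 and 10.4% of those of CCND1.

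**Figure D4:**
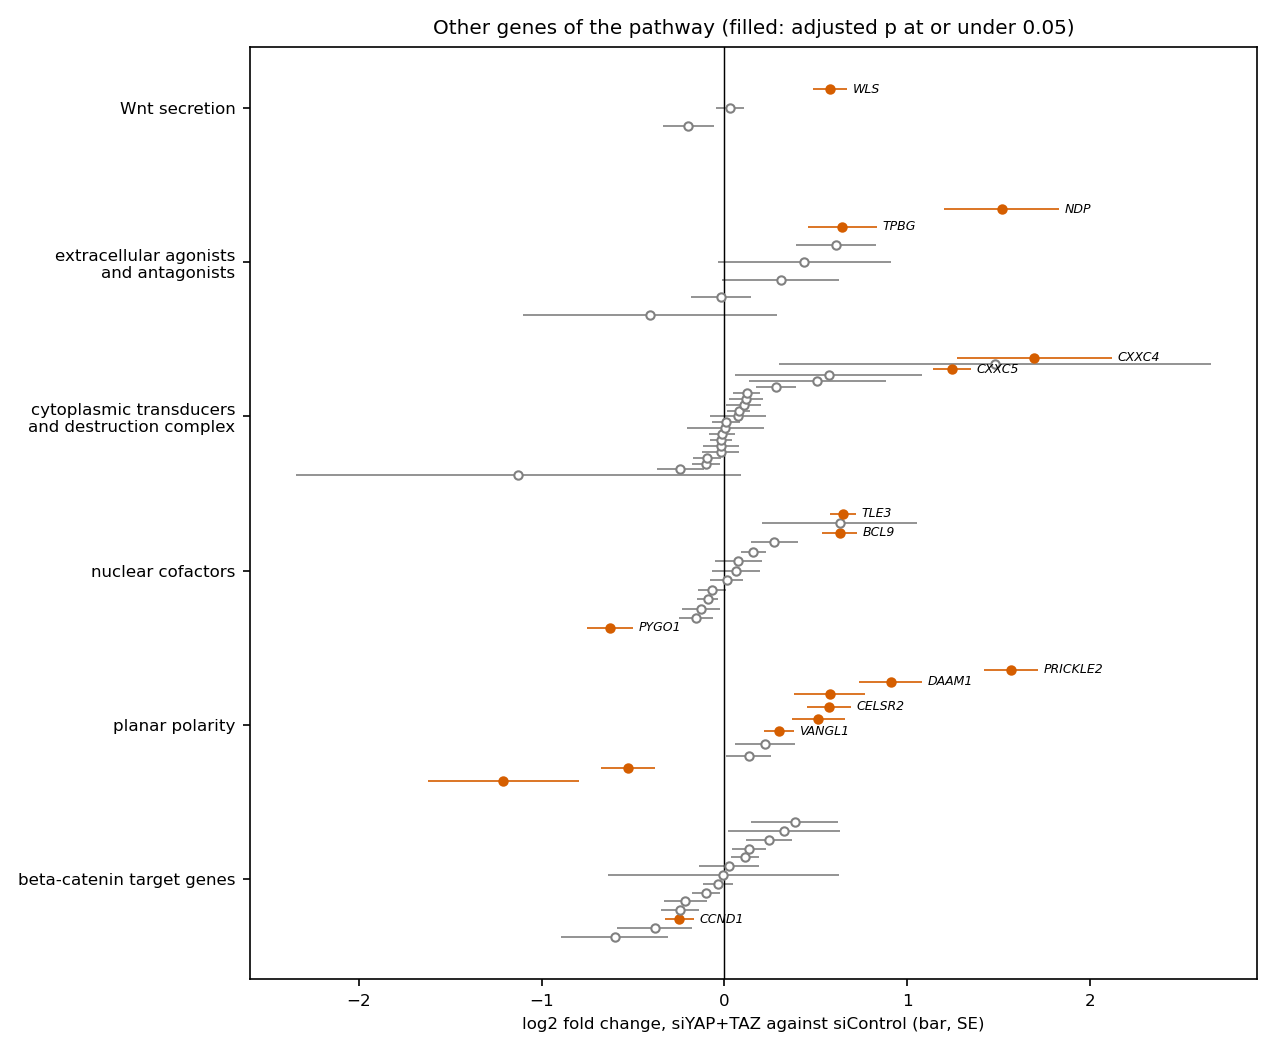
Log2 fold change with SE in siYAP+TAZ against siControl of the 68 other pathway genes by list (filled, adjusted p at most 0.05; up to 4 named in a list by smallest p). The filled points lie mostly to the right in planar polarity, with 6 higher and 2 lower, and beta-catenin target genes show 1 filled point, CCND1. Members such as AXIN2 are not in these lists.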

How the data were processed

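RNA-seq was deposited for 15 libraries of MDA-MB-231 cells, 3 in each of 5 groups. Values are read counts per gene that the authors made with the UTAP pipeline: reads were trimmed with cutadapt and aligned and counted with STAR 2.4.2a (version from the submitters' processing notes) on GRCh38 with GENCODE 34, and the strand setting of the counting is not stated. The deposited table holds 18858 genes that reached 5 reads in 1 or more libraries. The authors' normalized, rld and comparison columns were not used. In 2 cells a count is written as 1.00E+04 and thus rounded (EIF1 in library 30 and GRN in library 20), neither of them a member.

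Counts were fitted in R 4.3.3 with edgeR 4.0.16 (TMM, robust quasi-likelihood, a coefficient per group, all 15 libraries, no added filter). P-values were adjusted by Benjamini-Hochberg over all 18858 genes. The paper names 3 independent sets of experiments without assigning libraries to them, so no block was used and the p-values measure the spread between these libraries. The alternatives were DESeq2 1.42.0, limma-voom (limma 3.58.1), DESeq2 size factors, filterByExpr, only the groups compared, the run of library numbers as a block, Control as the reference, and leaving out each library in turn. The fits were tested on simulated data with no effect of the run and with larger changes than most called members showed. Gene positions and exon lengths are from GENCODE 44, and promoter windows from RefSeq.

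Members with an adjusted p of at most 0.05 in a comparison with siControl or between knockdowns, and the most abundant member per kilobase of each role, are given with every library. In the other lists, genes past that threshold in siYAP+TAZ against siControl are named, at most 4 per list by smallest p. Members and lists were chosen with earlier results of these data known.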

Additional observations from a re-analysis of the deposited data

How the results depend on the processing

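Leaving out each library in turn gave 0 to 1 members in siYAP against siControl, 0 to 3 in siTAZ (0 to 2 with the fold threshold) and 6 to 11 in siYAP+TAZ, with 11 to 16 of the other pathway genes. Beside these counts stood 0.143% to 0.726%, 0.361% to 4.78% (0.0212% to 0.705% with the fold threshold) and 13.3% to 15.5% of all genes. Between knockdowns, leaving out a library gave 1 to 4 members in siYAP+TAZ against siTAZ, beside 2.47% to 5.03% of all genes. It gave 0 to 3 in siYAP against siTAZ, beside 0% to 2.21%. In siYAP+TAZ against siYAP the count stayed at 3, beside 2.12% to 3.6%. These fits hold fewer libraries. With the run of library numbers as a block, which the labels do not state, the counts were 6 in siYAP, 8 in siTAZ, 13 in siYAP+TAZ against siYAP, 12 in siYAP+TAZ against siTAZ, 4 in siYAP against siTAZ and 1 in the interaction (LRP5). The block fit kept each member called without it, and called more of all genes too. Its shares of all genes, in the same order, were 6.1%, 10.3%, 14.6%, 14.8%, 7.32% and 0.647%. DESeq2 called 3 in siTAZ (4.25% of all genes), 5 in siYAP+TAZ against siYAP (6.85%) and 1 in siYAP against siTAZ (1.88%). In siTAZ limma-voom called 2 (1.88% of all genes), and a fit of only the groups compared called 0 (0.78%). The cause of these changes was not tested. In siYAP+TAZ against siControl the other alternatives gave 11 to 17 members, beside 18.3% to 28.6% of the genes tested. The 22 calls of members, and TCF7L2 in siYAP+TAZ against siControl, were followed through the alternatives: 236 fits kept direction and side of the threshold, 50 lost the call, 6 gained it (TCF7L2) and 0 turned direction. Beyond these, members not called passed in 56 cases of a comparison and an alternative, 38 of them with the block. Of the 13 members called in siYAP+TAZ, 6 passed in every alternative fit (WNT9A, WNT7B, WNT5B, FZD2, LRP5 and CTNNB1). Depth limits what can be seen in the 9 members at very low counts. RNA levels say nothing of protein, secretion or signalling, and the strand setting of the counts is not stated.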
